A study of Homo sapiens with 6 samples.

Results

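The 258 RBMX peaks and the 360 RPA1 peaks of the first precipitation of each protein were compared, 618 peaks in all from 2 of the 6 samples of the series (4 precipitations and 2 inputs). All peaks of both lists entered, with no selection on their values. Both libraries came from 293T cells, a transformed human embryonic kidney line, and each is 1 library with no replicate in this comparison. One had been transfected with Flag-RBMX and the other with Flag-RPA1, so the protein followed was a tagged, introduced copy in cells that keep their own. Both groups received camptothecin for 24 hours, and no untreated precipitation was compared. DNA bound to the tagged protein was taken from sonicated lysates on Flag beads and sequenced. The labels do not say whether the cultures were separate. The inputs were not analysed here, and both lists were called with no control. Each peak was set against tags of its own library, either those around it or the genome-wide level.

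RBMX is a nuclear RNA-binding protein of the hnRNP family that binds nascent transcripts and takes part in splicing. RPA1 is the largest of the subunits that make up replication protein A, which coats single-stranded DNA during replication and repair. Camptothecin traps topoisomerase I on DNA, and replication forks that meet the trapped enzyme break. Centromeres and the sequence beside them are built of tandem satellite repeats in long stretches with few genes, and reads from one repeat copy can be placed on another.

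Printed here are promoters under a peak, to show the letters behind the promoter counts given below. They are the 2 with the most tags under peaks of both proteins, of RBMX alone and of RPA1 alone. Only promoters of an outermost listed start site entered, with the printed bases whole inside the peak. STX4, with more tags than CDIPT, was left out because the start site under its peaks of both proteins is not the outermost listed. The 6 are not typical of their sets: 5 come from 1 block of chromosome 16 with wide peaks of low fold. Each is the 250 bases before the outermost listed start site of the gene, 5′ to 3′ on its strand, from RefSeq on GRCh38.p14. Capitals mark the GC box, GGGCGG or its reverse complement CCGCCC. Peaks of both proteins covered the promoters of EEF1A1, the translation elongation factor (chr6:73521033-73521282, minus strand), and CDIPT, the phosphatidylinositol synthase (chr16:29863227-29863476, minus strand). Only RBMX peaks covered those of SEPHS2, a selenophosphate synthetase (chr16:30445875-30446124, minus strand), and PPP4C, a phosphatase catalytic subunit (chr16:30075744-30075993, plus strand). The RBMX summits were 1501 and 961 bp downstream of these start sites, outside the printed bases. Only RPA1 peaks covered those of ZNF771, a zinc finger protein (chr16:30407356-30407605, plus strand), and DCTPP1, which breaks down dCTP (chr16:30429801-30430050, minus strand). The RPA1 summits were 123 and 710 bp downstream of these start sites. The DCTPP1 bases hold an ATG just after the GC box with an open reading frame behind it. Its listed start site may therefore lie inside the gene, and the bases may not be its promoter.
EEF1A1: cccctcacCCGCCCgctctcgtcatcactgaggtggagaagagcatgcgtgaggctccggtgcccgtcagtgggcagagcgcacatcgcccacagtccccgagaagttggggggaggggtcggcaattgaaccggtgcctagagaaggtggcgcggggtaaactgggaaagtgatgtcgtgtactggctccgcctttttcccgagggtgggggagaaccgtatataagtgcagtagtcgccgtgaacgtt
CDIPT: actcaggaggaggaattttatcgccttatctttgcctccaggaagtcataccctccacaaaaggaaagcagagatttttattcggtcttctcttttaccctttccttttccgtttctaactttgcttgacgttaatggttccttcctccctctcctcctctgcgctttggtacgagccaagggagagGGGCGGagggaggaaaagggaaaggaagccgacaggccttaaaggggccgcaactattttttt
SEPHS2: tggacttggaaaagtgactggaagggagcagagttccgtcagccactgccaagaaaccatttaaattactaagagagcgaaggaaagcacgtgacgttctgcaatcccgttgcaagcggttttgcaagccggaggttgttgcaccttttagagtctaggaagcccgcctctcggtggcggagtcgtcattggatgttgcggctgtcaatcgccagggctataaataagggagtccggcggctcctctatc
PPP4C: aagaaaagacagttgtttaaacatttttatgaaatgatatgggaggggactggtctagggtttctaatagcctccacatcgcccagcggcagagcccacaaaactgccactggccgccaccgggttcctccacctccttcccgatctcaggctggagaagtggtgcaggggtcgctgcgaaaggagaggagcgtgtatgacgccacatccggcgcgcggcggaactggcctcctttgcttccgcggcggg
ZNF771: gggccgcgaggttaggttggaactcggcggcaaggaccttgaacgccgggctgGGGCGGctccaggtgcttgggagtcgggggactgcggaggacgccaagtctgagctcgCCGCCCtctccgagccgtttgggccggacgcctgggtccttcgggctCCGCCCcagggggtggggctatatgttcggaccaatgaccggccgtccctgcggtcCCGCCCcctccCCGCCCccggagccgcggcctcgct
DCTPP1: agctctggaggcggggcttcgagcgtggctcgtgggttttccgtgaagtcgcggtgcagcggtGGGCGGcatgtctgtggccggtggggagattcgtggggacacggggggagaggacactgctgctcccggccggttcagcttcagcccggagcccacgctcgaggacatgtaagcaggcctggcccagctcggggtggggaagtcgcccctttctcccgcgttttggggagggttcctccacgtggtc

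The libraries were of nearly the same depth. RBMX had 20199680 filtered tags and RPA1 had 20089972, so 1 tag was worth 0.0495 and 0.0498 tags per 1000000 filtered tags, the unit of level used throughout and called normalised tags. The RBMX peaks covered 285.3 kb and held 0.0838% of the filtered tags, and the RPA1 peaks covered 381.9 kb and held 0.0960%. No peak overlapped another of its own list.

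A minority of the peaks of either list was shared. Of the 258 RBMX peaks, 107 overlapped an RPA1 peak by 1 bp or more, which is 41.5% (95% Clopper-Pearson interval 35.4 to 47.7). Of the 360 RPA1 peaks, 109 overlapped an RBMX peak, which is 30.3% (25.6 to 35.3). Intervals cover counting error only. Those of shares treat the peaks of a list as independent draws, though some are neighbours, and give no spread between libraries. The overlaps formed 106 regions, 102 of them 1 peak against 1 peak and 4 with several peaks of a protein. The smallest overlap was 229 bp. Paired peaks were the larger ones: they held 68.3% of the tags in RBMX peaks and 54.5% of those in RPA1 peaks. An unpaired peak has no listed peak of the other protein over it, and the tags of the other library there were not analysed here.

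At the shared regions the normalised tags of the 2 libraries were close. No input was taken off, so these tags include background and do not measure bound protein alone. Only regions with a peak in both lists enter the ratios below, so sites where 1 library fell under the cutoff are left out. That selection can narrow the range of the ratios. The RBMX level ranged from 0.743 to 73.3 normalised tags with a median of 1.88, and the RPA1 level from 0.747 to 50.5 with a median of 1.94. The median ratio, RBMX over RPA1, was 0.988 (log2 −0.02), with quartiles of 0.905 and 1.11 and a range from 0.526 to 2.09. RBMX was higher in 46 regions and RPA1 in 60. Per kb of peak, which takes in the width that each list gave the region, RBMX was higher in 36 and RPA1 in 70. Of the 106 regions, 92 (86.8%) were within 1.5-fold. Past 2-fold there was 1 region higher for RBMX (0.943% of the regions) and there were 0 higher for RPA1 (0%). Across the 106 regions Pearson's r of the log2 levels was 0.975, a description over regions that share the 2 libraries, the mapping and the peak caller.

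**Figure D1:**
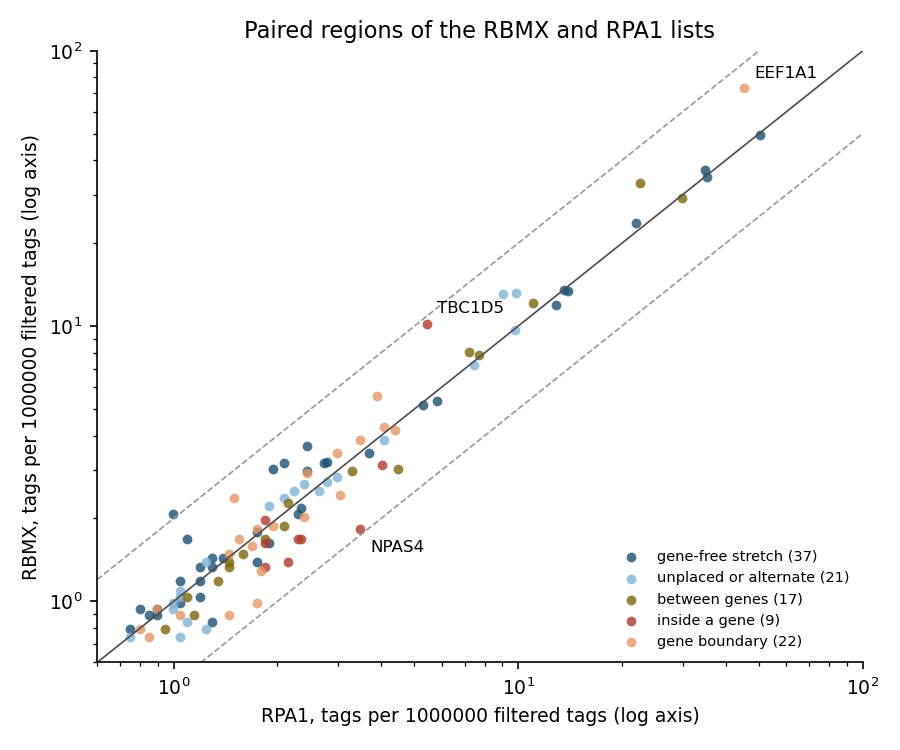
Level of RPA1 (horizontal) and RBMX (vertical) in the 106 paired regions, in tags per 1000000 filtered tags on log axes, 1 point a region, coloured by where the region lies, with the number of regions in brackets. The solid line is equality and the dashed lines are 2-fold. The points lie along the line over the whole range, EEF1A1 is the highest RBMX point, and 1 gene-free region lies past the upper dashed line.

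By the smaller of the 2 levels, the first 7 regions were 5 on chromosome 16, EEF1A1 and 1 on chromosome 3. At chr16:46388301-46391544, in a stretch of 1 Mb or more with no annotated gene, RBMX had 996 tags and RPA1 1014 (49.3 and 50.5 normalised tags). Its neighbour at chr16:46398547-46402123 had 748 and 702 tags, and chr16:46394022-46396148 had 477 and 440. At chr16:46398547-46402123 the summits were 1474 bp apart, the largest distance of any pair, and the folds were 6.35 for RBMX and 3.99 for RPA1. At chr16:34581083-34584109, beside LOC102724523, there were 588 and 602 tags, and the 2 summits were 1 bp apart. In tags these 4 regions differed by less than the counting interval of their ratio.

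The region beside the last one did not follow it. At chr16:34584483-34589256 RBMX had 1 peak of 668 tags where RPA1 had 2 peaks with 452 tags in all, a ratio of 1.47 (1.30 to 1.66). The RBMX peak was 4645 bp wide and the RPA1 peaks 2569 bp together, and per kb the order turned, with 7.12 normalised tags for RBMX and 8.76 for RPA1. In the other 3 regions of several peaks the totals were close: 272 against 273 tags at chr4:49708891-49712098, and 108 against 117 at chr1:143264013-143266656. The remaining one, on an unplaced sequence, had 195 against 197.

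Gene-free stretches held 37 of the 106 regions, more than any other class. They were on chromosomes 1 (9 regions), 4 (7), 7, 16 and 17 (5 each), 5 (4), 3 and 10 (1 each). At chr3:93470211-93471011 RBMX had 700 tags and RPA1 710, with folds over local background of 26.1 and 25.6 as the authors deposited them. At chr4:50555822-50556348 there were 70 and 74 tags with folds of 46.1 and 48.0, the highest fold of either list among paired regions. The 3 neighbours on chromosome 5, from chr5:49599249-49603059 to chr5:49660542-49661992, had 240 against 258, 270 against 281 and 104 against 106 tags. The fourth of that chromosome, chr5:49666030-49667344, had 61 against 39, a ratio of 1.56 (1.02 to 2.39). Its RBMX peak was 1315 bp wide and its RPA1 peak 758 bp, and per kb it had 2.30 and 2.56 normalised tags.

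On chromosome 17 all 5 gene-free regions had slightly more normalised tags in the RBMX library, with ratios from 1.03 to 1.22. The one with the most tags, chr17:26603583-26604265, had 64 and 55, and the one with the largest ratio, chr17:25919951-25920397, had 60 and 49. Each of these 5 ratios was within its counting interval of 1, and their summits were at most 3 bp apart. On chromosome 7 the 5 regions had 18 to 36 RBMX tags and 17 to 35 RPA1 tags, with summits 1 to 4 bp apart.

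In a few regions the interval of the tag ratio left out 1, but for most of them the direction turned per kb of peak. Tags of each library were counted over its own peak, so the ratio takes in differences in width, which the interval does not cover. Among 106 intervals at 95%, some would leave out 1 with no difference. The 95% interval of the ratio left out 1 in 12 of the 106 regions, 10 higher for RBMX and 2 higher for RPA1. Per kb, 8 of the 10 were higher for RPA1, and EEF1A1 and TBC1D5 stayed higher for RBMX. The values per kb have no interval and divide by the width each list gave, so a wider peak lowers them. Among the 8, chr16:46380535-46381600 was nearly equal, at 3.44 for RBMX and 3.45 for RPA1. Both regions higher for RPA1 were so per kb as well. With 1 library per protein this compares 2 libraries and has no replicate check. EEF1A1 (chr6:73519546-73521771) had 1480 RBMX tags and 910 RPA1 tags, 73.3 against 45.3 normalised tags, a ratio of 1.62 (1.49 to 1.76), and 32.9 against 23.2 per kb. TBC1D5, a GTPase-activating protein of membrane traffic, had 206 and 109 tags inside the gene at chr3:17401545-17402788, a ratio of 1.88 (1.48 to 2.39), and 9.96 against 5.01 normalised tags per kb. STX4, a membrane fusion protein, had 113 and 78 tags at chr16:31032125-31035351, a ratio of 1.44 (1.07 to 1.95). Its RBMX peak was 3227 bp wide and its RPA1 peak 1986 bp, and per kb it was among those that turned, with 1.73 and 1.96 normalised tags.

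NPAS4, an activity-induced transcription factor, was the region most in favour of RPA1. It had 37 RBMX tags and 70 RPA1 tags at chr11:66421332-66422360, a ratio of 0.526 (0.343 to 0.794), and 2.04 against 3.39 normalised tags per kb. The other one was chr1:31787383-31789866, near SPOCD1, with 61 and 90 tags and a ratio of 0.674 (0.479 to 0.943), but 1.77 and 1.80 normalised tags per kb. NPAS4 was the 1 immediate early gene of the 27 listed that had a peak, 3.7% against 0.792% (473 of 59702) of all placed genes.

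The region past 2-fold was chr1:125181088-125182245 in a gene-free stretch, with 42 RBMX tags and 20 RPA1 tags (2.08 and 0.996 normalised tags), a ratio of 2.09 (1.20 to 3.76). Its RBMX peak was 965 bp wide and its RPA1 peak 422 bp, and the summits were 688 bp apart. Per kb of peak the order turned, with 2.15 normalised tags for RBMX and 2.36 for RPA1. By the deposited fold, 1 other region passed 2-fold, SYT7, a calcium sensor of vesicle release, at 5.74 for RBMX and 11.54 for RPA1, while its tags were 33 and 37.

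The 9 regions inside a gene and away from its boundaries leaned to RPA1, with a median ratio of 0.735. RPA1 was higher in 7 of the 9, and TBC1D5, given above, was 1 of the other two. The median was nearer to equality on other scales, at log2 −0.20 per kb and log2 −0.11 by the deposited fold against −0.44 for the tags. UNC5A, a netrin receptor, had 34 and 46 tags, and COL23A1, a collagen, had 28 and 43. PTPRN2, a receptor-type phosphatase, had 27 and 37. The intervals of these 3 included 1. The median ratio was 1.03 in gene-free stretches, 1.01 at gene boundaries, 0.995 on unplaced or alternate sequences and 0.932 between genes.

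Of the small RNA genes, RNVU1-6, a U1-type small nuclear RNA gene, had 37 RBMX and 35 RPA1 tags. LOC124904138, annotated as a small nuclear RNA gene, had 18 and 29 tags, a ratio of 0.617 (0.323 to 1.15). Nuclear copies of mitochondrial genes had 4 peaks in each list, all paired, over 11 of 474 genes (2.32%, against 0.792% of all placed genes). Over all peaks 41.5% of the RBMX and 30.3% of the RPA1 peaks were paired. The one over MTCO2P12, MTATP8P1, MTATP6P1 and MTCO3P12 had 78 and 70 tags.

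Summits coincided to within a few bp in about as many pairs as not. Over the 102 pairs of 1 peak with 1 peak the median distance between summits was 4 bp, with quartiles of 1 and 122 bp and a maximum of 1474 bp. In 15 pairs the 2 summits were on the same base, in 52 (51.0%) within 5 bp and in 83 within 200 bp. The distance differed with where the region lay. In gene-free stretches the median was 2 bp, and 27 of 35 pairs were within 5 bp, but the pair at the maximum of 1474 bp was also there. At gene boundaries it was 162.5 bp, 7 of 22 pairs were within 5 bp and 10 of 22 were over 200 bp apart.

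EEF1A1 was among the close pairs at gene boundaries, with summits 1 bp apart and 770 and 771 bp downstream of the start site. TMEM216, a protein of the ciliary base, had nearly equal tags (30 and 29) and summits 283 bp apart. CDIPT had 87 and 82 tags and summits 717 bp apart. PEX19, a peroxisome import factor, had 48 and 30 tags and summits 1096 bp apart. The fold moved with the class too: its median was 12.5 for RBMX and 12.1 for RPA1 in gene-free stretches against 6.25 and 6.79 at gene boundaries, and its part in the summit distance was not tested.

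**Figure D2:**
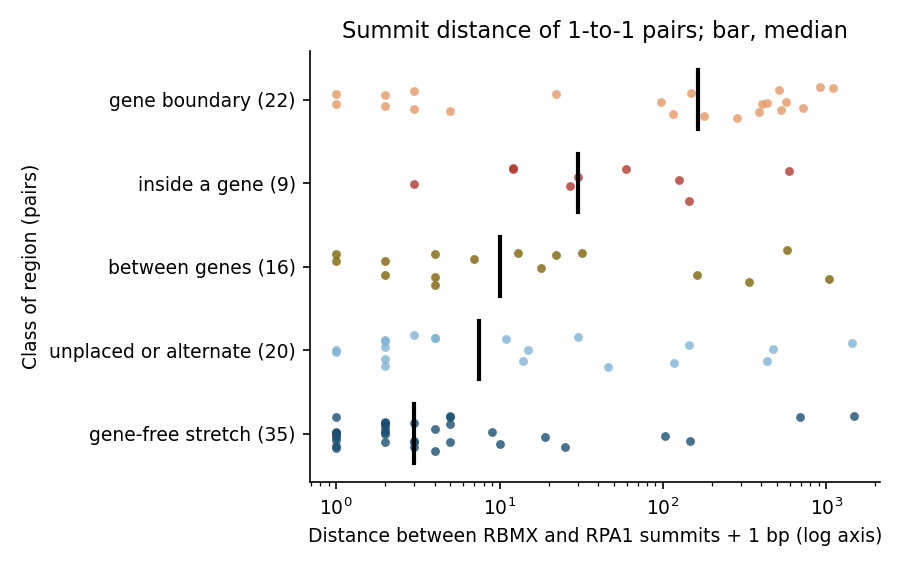
Distance between the RBMX and RPA1 summits of the 102 pairs of 1 peak with 1 peak, plus 1 bp, on a log axis, by class of region with the number of pairs in brackets. Each point is a pair and the bar is the median of its class. Most gene-free pairs lie at the left, within 5 bp, and the gene boundary pairs spread from 0 to 1096 bp. The largest distance, 1474 bp, is that of a gene-free pair.

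Widths were close too. The median width was 936 bp for RBMX and 853 bp for RPA1, and the median difference within pairs was −1 bp. RBMX peaks were wider in 47 pairs, RPA1 peaks in 52, and 3 were equal. In 23 pairs the widths differed by at most 10 bp. A peak's background was taken as the genome-wide level where its fold times that level lay within 0.02 of a whole number. That number was read as the summit height in tags, and a peak with another background can meet the rule by coincidence. Both peaks of 31 regions met it, and the heights of 24 of them differed by at most 3 tags, 10 of them by none.

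Over all peak strengths, unpaired peaks lay elsewhere than paired ones. Of the 151 unpaired RBMX peaks, 41.1% were within 1 kb of a gene boundary and 5.30% in a gene-free stretch, while of the 107 paired ones 20.6% and 35.5% were. Of the 251 unpaired RPA1 peaks, 50.2% were within 1 kb of a boundary and 1.59% in a gene-free stretch, while of the 109 paired ones 19.3% and 34.9% were. A further 45 unpaired RBMX peaks and 72 unpaired RPA1 peaks (28.7%) lay inside a gene, against 8.41% and 9.17% of the paired ones. With pairing redone among peaks at a p of 1e-10 or less, 3 of 12 placed unpaired RBMX peaks (25.0%) were within 1 kb of a boundary. For RPA1 it was 3 of 17 (17.65%). The share of paired peaks at that p was not worked out. The unpaired peaks were far from the other list: the nearest peak was at least 344 bp from an RBMX peak and 380 bp from an RPA1 peak, with medians of 1.38 Mb and 1.98 Mb.

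**Figure D3:**
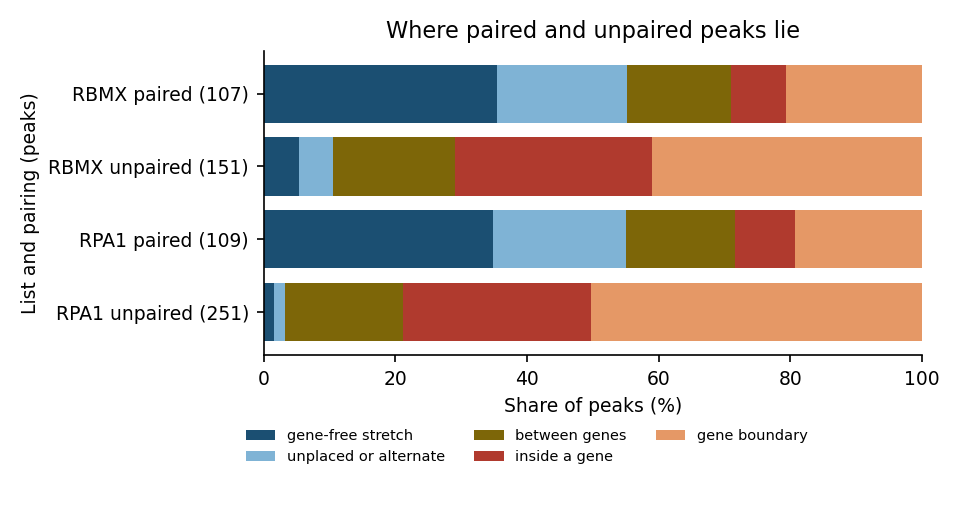
Share of peaks in 5 classes of location, for paired and unpaired peaks of each list, with the number of peaks in brackets. Gene-free stretches and unplaced sequences make up over 50% of the paired bars of both proteins and gene boundaries and gene bodies most of the unpaired bars.

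Most unpaired peaks were close to the calling threshold. The median −log10 p of the authors' caller was 5.60 for unpaired RBMX peaks and 5.62 for unpaired RPA1 peaks, where the cutoff was 5, against 10.1 and 11.9 for paired ones. Under 6 there were 103 (68.2%) and 158 (62.9%) unpaired peaks, against 14 and 13 paired ones. At 10 or more there were 7 and 9 unpaired peaks, against 58 and 65 paired ones. Among peaks of both lists with a p of 1e-10 or less, 80.0% of the RBMX peaks and 71.6% of the RPA1 peaks were paired.

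The strongest unpaired peaks lay over the gene of the transfected protein. Of the 7 unpaired RBMX peaks at 10 or more, 5 were over RBMX or its copies, and of the 9 unpaired RPA1 peaks 5 were over RPA1. The RBMX gene had 2 peaks, of 158 and 223 tags (chrX:136873754-136874620 and chrX:136874970-136876924). RBMXL1, a retrocopy that lies within KYAT3, had 121 tags, and the pseudogenes RBMXP2 and RBMXP5 had 103 and 43. These 5 peaks held 648 tags, 12.1% of those in unpaired RBMX peaks, and no RPA1 peak lay over any of them.

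The RPA1 gene had 9 peaks of 35 to 288 tags, from 13.95 to 67.12 kb into the gene. The highest, chr17:1878840-1880964, had 288 tags, and chr17:1888185-1889036 had 119. Together they held 787 tags, 8.96% of those in unpaired RPA1 peaks, and no RBMX peak lay over the gene. Tags from the introduced DNA and tags from the chromosomal gene cannot be told apart in these lists.

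**Figure D4:**
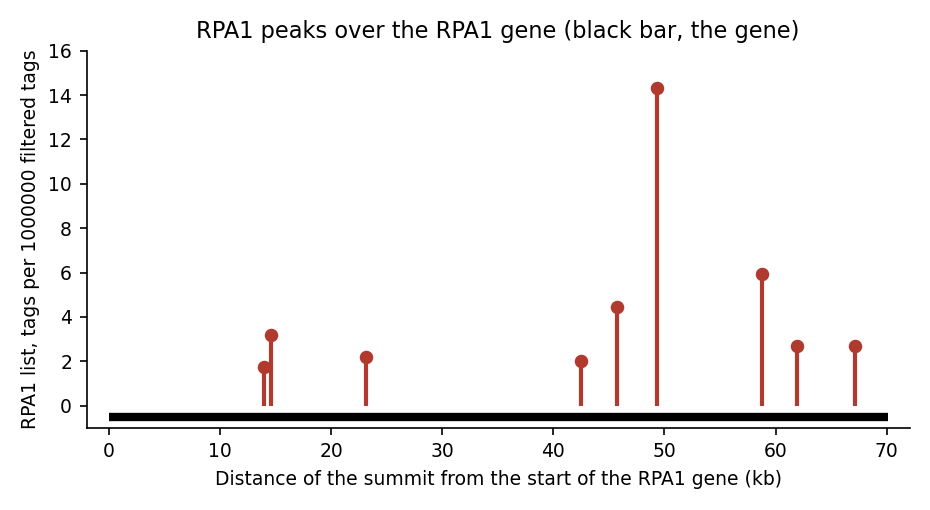
Level of the 9 RPA1 peaks over the RPA1 gene, in tags per 1000000 filtered tags, by distance of the summit from the gene start in kb. The peaks lie apart along the gene, and the highest, at 14.3 normalised tags, is 49.3 kb in.

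**Figure D5:**
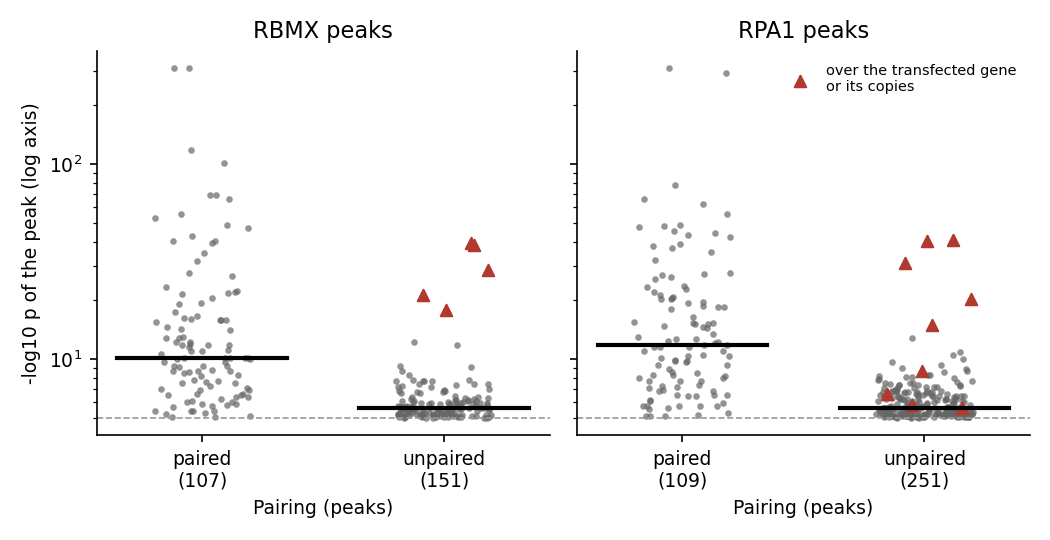
The −log10 p of each peak, on a log axis, for paired and unpaired peaks of each list, with the number of peaks in brackets, the median as a bar and the cutoff of 5 as a dashed line. Triangles are peaks over RBMX and its copies or over RPA1. Apart from the triangles the unpaired peaks lie between 5 and 13.

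Outside those genes the unpaired peaks of highest fold were small. For RBMX, chr8:85742842-85743234 near LOC101929627 had 21 tags and a fold of 14.0, and chr1:143255897-143256502 had 26 tags and a fold of 12.03. FAM230G had 19 tags and a fold of 10.7. For RPA1, L1CAM, a neural adhesion molecule, had 40 tags and a fold of 13.6, and chr4:49657153-49658013 had 24 tags and a fold of 14.1. SNAP25, a protein of synaptic vesicle fusion, had 22 tags, and LIN28A, an RNA-binding protein of stem cells, had 31 tags 2143 bp from the gene.

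Start sites lay close to more of the unpaired than of the paired peaks, on the chromosomes of the promoter table, in which chromosome 8 was not used. Of 139 unpaired RBMX peaks 46 (33.1%) had their summit within 1 kb of a start site, and of 240 unpaired RPA1 peaks 93 (38.8%) did. Of the paired peaks 10 (12.2%) and 11 (13.3%) did. Among those within 1 kb, the median summit of the unpaired peaks was 358.5 bp downstream of the start for RBMX and 139 bp for RPA1, and that of the paired peaks 15 and 99 bp.

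The promoter windows, 250 bases before to 50 after a start site, held more G and C in the sets under 1 list alone than over all genes. The median GC content was 63.8% in the 56 windows under an RBMX peak only, 67.0% in the 137 under an RPA1 peak only and 59.8% in the 8 under both, against 58.7% in all 35116 windows. The GC box, searched on both strands, was in 78.6%, 75.2% and 62.5% of these sets and in 45.0% of all windows. The CCAAT box (CCAAT) was in 28.6%, 39.4% and 12.5%, against 34.6%. The TATA box (TATAAA) was in 7.14%, 5.84% and 0%, against 11.5%. The E box (CANNTG) was in 71.4%, 57.7% and 87.5%, against 68.7%. The CRE (TGACGTCA) was in 1.79%, 2.92% and 0%, against 1.85%. A match says that the letters are there and nothing of binding. Among the sequences printed above, ZNF771 had 5 GC boxes and EEF1A1, CDIPT and DCTPP1 had 1 each, while SEPHS2 and PPP4C had 0, unlike most of the set under RBMX alone.

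Of those 6 genes, the 5 on chromosome 16 lie in a block from 29.8 to 31.1 Mb, noticed after the values were seen, with 8 RBMX and 15 RPA1 peaks, of which 3 of each were paired. Peaks there were wide and low: median widths were 2466 and 2123 bp, and folds ran from 2.93 to 3.95 for RBMX and from 2.62 to 4.70 for RPA1. They made up 7 and 8 of the 20 smallest folds of their lists. The stretch from 29 to 33 Mb on chromosome 1 had 4 RBMX and 8 RPA1 peaks with median widths of 2019.5 and 2092.5 bp.

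Of the listed gene groups, zinc finger genes had peaks of RPA1 alone: 10 genes of 701 (1.43%), with 9 peaks, and 0 with an RBMX peak. Of all 59702 placed genes, 265 had RPA1 peaks only and 208 had an RBMX peak. Those with a peak of either list were 0.792%. With RBMX peaks at so few genes, 0 of 701 says little. ZNF771 had 163 tags, ZNF768 91 and ZNF629 66, all in the chromosome 16 block. The U1-type small nuclear RNA genes RNVU1-15, RNVU1-34, RNVU1-30, RNVU1-27 and RNVU1-14 had RPA1 peaks of 17 to 24 tags and no RBMX peak. With RNVU1-6 they were 6 of 1862 listed small nuclear RNA genes (0.322%), a smaller share than over all genes. That list takes every symbol starting with RNU or RNVU, and the share among U1-type genes alone was not counted. Over all 59702 placed genes, 55 had peaks of both proteins, 153 of RBMX only and 265 of RPA1 only.

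The other groups are set beside the 0.792% of all placed genes that had a peak. The histone genes H2AC18, H2BC19P and H4C15 shared 1 RBMX peak of 29 tags, 3 of 95 genes (3.16%). The tRNA genes TRX-CAT1-1 and TRG-CCC5-1 had RBMX peaks of 52 and 41 tags, and TRN-GTT2-2 an RPA1 peak of 39, 3 of 510 genes (0.588%). SNORD45A and SNORD45C shared an RBMX peak of 44 tags, and SNORA57 and SNORD3B-2 had RPA1 peaks of 49 and 16, 4 of 602 genes (0.664%). The ribosomal protein list, taken by symbol, had RPL34P12 with an RBMX peak of 24 tags and RPS6KA2, which is a kinase and not a ribosomal protein, with an RPA1 peak of 28, 2 of 1993 genes (0.1%). LRP1B was the 1 of 12 common fragile site genes with a peak, of 15 RPA1 tags. The 15 p53 target genes and 11 heat shock and stress genes had 0 peaks in either list, in groups too small for a share of 0.792% to give 1.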

How the data were processed

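Peaks were called by the authors with MACS 1.4.2 with no control, a p cutoff of 1e-05, at most 1 tag per position, 50 bp tags and a regional background over 10000 bp, per the file headers. The build is GRCh38, per the submitters' processing notes, and the aligner is not given in the sources used here. The deposited tags are counts per peak, the deposited score is the log10 of p times minus 10 and is given here as −log10 p, and the deposited fold is a ratio of summit height to background. Tags were divided by the filtered tags of the header. Peaks sharing 1 bp or more were paired, and connected peaks made a region. Python 3.11.15, pandas 2.3.3, NumPy 2.4.6, SciPy 1.17.1 and matplotlib 3.10.9 were used, and pairing was tested on simulated data. Peak midpoints were classed with RefSeq genes of GRCh38.p14, which carry no exons or repeats. With 1 library per protein no test between proteins was made, and intervals of shares and ratios are exact Clopper-Pearson at 95%. The 2 inputs and the second precipitations were left out. The labels number neither first precipitation, so number 1 is only a name.

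Named were the 12 regions with the largest smaller level, the 8 largest and 8 smallest ratios, the 15 unpaired peaks of largest fold per list, and up to 6 genes of each listed group, from which the text takes a part. Genes at other regions, the block on chromosome 16, the stretch on chromosome 1, the list of strong unpaired peaks and the choice of promoters to print were added after their values were seen. The members and lists were chosen with earlier results of these data known.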

Additional observations from a re-analysis of the deposited data

How the results depend on the processing

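The share of peaks paired moved with the threshold. It was 41.47% of RBMX and 30.28% of RPA1 peaks, 33.33% and 23.89% with summits within 200 bp, 80.0% and 71.62% at a p of 1e-10 or less in both lists, and 75.81% and 73.44% at a fold of 10 or more. The count of regions past 2-fold, 1, was 0 per kb of peak and 0 with an overlap of 50% of both peaks. The share of placed unpaired peaks within 1 kb of a gene boundary was 43.36% for RBMX and 51.01% for RPA1. It was 25.0% and 17.65% at 1e-10, over 12 and 17 peaks. Pairing was redone among peaks at that p, so some of these overlap a weaker peak of the other list. In both lists that alternative leaves fewer peaks. The other 26 of 36 values, among them every median ratio, summit distance and width difference, stayed within the interval of the main value, or for a count within 1.5 times it. These intervals treat peaks or regions as independent draws. The count by the deposited fold was also 1, but it was another region, SYT7, and higher for RPA1 instead of RBMX. One alternative, leaving out peaks over RBMX, its copies and RPA1, was chosen after seeing the data. No paired analysis was possible because each protein had 1 library here. A peak of 14 tags was the smallest listed, so weaker sites are not in these lists.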
